A study of Arabidopsis thaliana with 2 samples.

Results

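Broad peaks of TGA1-GFP, those spanning 1000 bp or more, made up 731 of the 8002 peaks in the deposited list, or 9.14%. They were chosen by width alone (end minus start), so their width is described here and not tested. The peaks come from chromatin immunoprecipitation with sequencing (ChIP-seq) on roots of Arabidopsis thaliana plants that carry TGA1 fused to green fluorescent protein (GFP). The titles name 1 library made with an antibody against GFP and 1 made with IgG, an antibody without a chosen target, from the same kind of plants. The promoter that drives the fusion, the genotype that carries it, the age of the plants and their nitrogen supply are not stated in the labels used here. The list has no heights, scores or read counts, so the depth of each library is unknown. Each antibody has a single library, so no replicate exists and no difference was tested. Shares below carry 95% Wilson intervals, which cover only the number of peaks or genes counted, and neighbouring peaks are not independent.

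TGA1 is a basic leucine zipper (bZIP) transcription factor. TGA factors bind DNA at TGACG-type elements and lack enzymatic activity of their own, so their output depends on partner proteins, among them the NPR coactivators of salicylic acid signalling and small glutaredoxins. In roots, TGA1 and its closest relative TGA4 are known for their part in the nitrate response, and the series title places TGA factors downstream of polypeptides that travel from shoot to root. A ChIP-seq peak marks a stretch where fragments were enriched. A list of starts and ends does not show what lies within a wide peak.

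Median widths were 1281 bp for broad peaks (quartiles 1117 and 1559 bp), against 413 bp (324 and 555 bp) for the other 7271 peaks, called narrower peaks below. They covered 1.05 Mb, 23.8% of all bases under peaks. Widths fell off steeply above the threshold: 511 peaks were 1000 to 1499 bp wide, 151 were 1500 to 1999 bp and 69 were 2000 bp or more, up to 4997 bp. The threshold cut through a continuum, with 4 peaks of exactly 1000 bp and 1 of 1001 bp just inside it, and peaks of 999, 998 and 997 bp just outside. Broad peaks sat early in the list, whose order the file does not explain. They made up 246 of the first 500 entries (49.2%), 141 of the next 500 (28.2%) and 2 of the last 2002.

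All 5 chromosomes held broad peaks in similar proportion. Their share of the peaks ran from 8.29% on chromosome 2 (106 of 1278) to 10.3% on chromosome 3 (157 of 1523), with 9.28% on chromosome 1, 8.96% on chromosome 4 and 8.68% on chromosome 5. Of 116 full bins of 1 Mb, 19 had none. These bins were gene-poor (median 58 protein-coding genes, where the median of all bins was 260.5) and held only 182 peaks of any width. The most crowded bin, the fifth Mb of chromosome 3, had 18 broad peaks, against a median of 6.

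The most frequent layout of a broad peak, though not that of most of them, was to start a short way inside a gene and run out into the stretch beyond it. Of the 731, 334 crossed the end of 1 protein-coding gene, 45.7% (42.1 to 49.3%), against 34.3% (33.2 to 35.4%) of narrower peaks. These 334 peaks had a median of 240.5 bp inside the gene (quartiles 136 and 451 bp) and 1058 bp outside it (832 and 1319 bp). Narrower peaks that crossed 1 end had 156 and 266 bp. The extra width therefore lay mostly on the outer side. The gene table gives no strand, so starts and ends of genes are joined in every statement about gene ends.

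The other layouts differed in the same sense. A further 276 broad peaks lay wholly between protein-coding genes, 37.8% (34.3 to 41.3%), against 47.5% of narrower peaks. Bridging peaks, which reached from a gene across a gap into the next, numbered 69, or 9.44% (7.53 to 11.8%), against 4.26% (3.82 to 4.75%). Only 31 broad peaks lay wholly inside protein-coding genes, 4.24% (interval up to 5.96%), where narrower peaks had 13.8% (13.0 to 14.6%). Another 21 held a whole protein-coding gene. A wide interval has less room to fit inside a gene and more reach to touch one, so these counts depend on width by geometry. The share of covered bases that lay in protein-coding genes was 20.3% for broad and 28.9% for narrower peaks. It is not free of width either: it fell from 32.8% at 249 to 334 bp to 15.4% at 2000 bp or more.

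**Figure D1:**
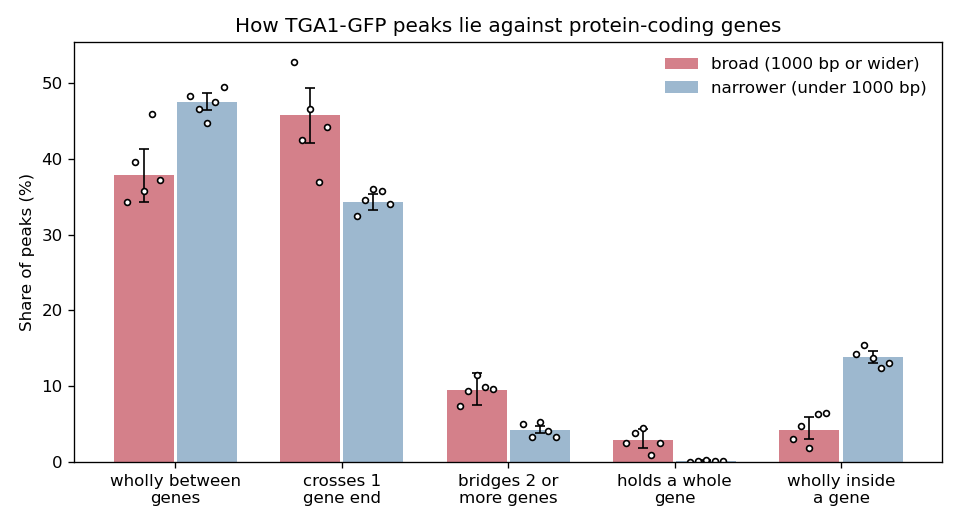
Share of peaks (%, y axis) in each of 5 layouts against protein-coding genes (x axis) for 731 broad and 7271 narrower TGA1-GFP peaks; bars are all peaks, black lines 95% Wilson intervals and open points the 5 chromosomes. Broad peaks crossing 1 gene end make up 45.7%, and those wholly inside genes 4.24%.

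Aligned on the nearest protein-coding gene end, the broad peaks formed a plateau outside the gene with a sharp inner edge. Coverage was highest 450 bp outside, where 67.7% of broad peaks lay over the position. It was 58.3% at the gene end itself, 37.2% at 200 bp inside and 15.2% at 500 bp inside. Toward the outside it fell more slowly, with 67.4% at 500 bp, 53.8% at 1000 bp and 20.7% at 2000 bp. Narrower peaks were centred closer to the gene, with their highest coverage, 42.3%, at 100 bp outside, and 19.3% at 500 bp outside. A sharp inner edge was not particular to broad peaks. Coverage by narrower peaks was 39.8% at the gene end, 17.9% at 200 bp inside and 4.22% at 500 bp inside.

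**Figure D2:**
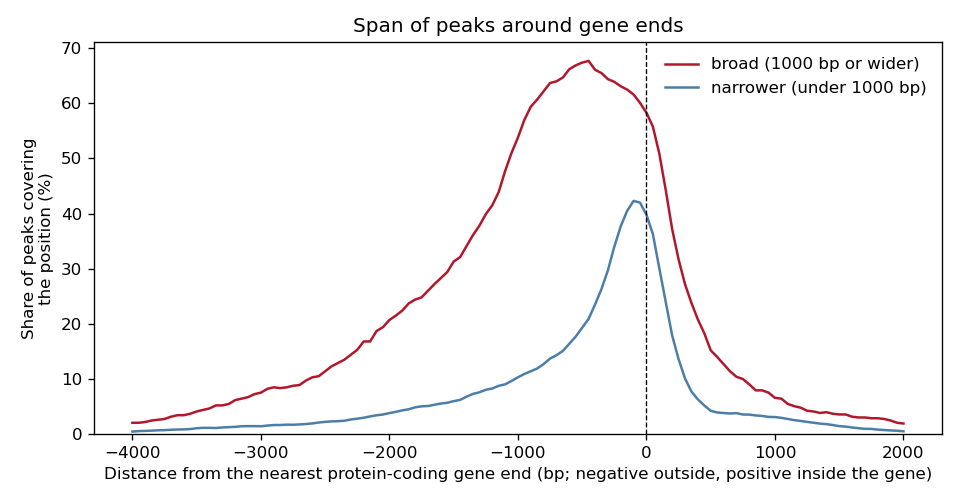
Share of peaks (%, y axis) that cover each position around the nearest protein-coding gene end (x axis, bp, negative outside and positive inside the gene), for broad (red) and narrower (blue) peaks. The red curve is highest 450 bp outside the gene at 67.7% and falls to 15.2% at 500 bp inside, so it is lopsided toward the outside.

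Midpoints gave the same picture. Those of 102 broad peaks lay inside a protein-coding gene, 14.0% (11.6 to 16.7%), against 26.4% (25.4 to 27.5%) for narrower peaks, and the share was below that of narrower peaks on each chromosome (11.5 to 17.9% against 25.2 to 28.7%). In windows of equal length, the central 200 bp of every peak, 17.0% of broad and 38.2% of narrower peaks touched a protein-coding gene. Midpoints in flanks, that is outside genes but no more than 1000 bp from an end, made up 57.3% (53.7 to 60.9%) of broad peaks and 53.8% (52.6 to 54.9%) of narrower ones, and on chromosome 4 the order was the other way (48.6% against 54.4%). Distal midpoints, over 1000 bp away from every gene, numbered 193 for broad peaks, 26.4% (23.3 to 29.7%), against 17.8% (17.0 to 18.7%). Outside protein-coding genes the median midpoint was 682 bp from the nearest one for broad and 451 bp for narrower peaks. The midpoint of a peak anchored at a gene end moves outward with its width, and the central 200 bp move with it. This distance, the midpoint shares and the share for the central 200 bp are therefore not independent of how the peaks were chosen.

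No step stood at the threshold itself. Midpoints inside protein-coding genes went from 30.8% of the peaks of 249 to 334 bp to 20.4% at 626 to 999 bp, 14.7% at 1000 to 1499 bp, 12.6% at 1500 to 1999 bp and 11.6% at 2000 bp or more. Midpoints over 1000 bp from any gene went from 15.7% in the narrowest class to 20.7% at 626 to 999 bp, 22.5% at 1000 to 1499 bp and 26.5% at 1500 to 1999 bp, and then stood at 55.1% (43.4 to 66.2%) in the 69 peaks of 2000 bp or more. A peak of 2000 bp that starts at a gene end already has its midpoint about 1000 bp out, so the last share depends on width by geometry. Of these 69 peaks, 68.1% overlapped a protein-coding gene. Where the midpoint lay outside protein-coding genes, peaks of 2000 bp or more had a median of 4607 bp between the genes on their sides. For such peaks of 1000 to 1499 bp it was 3047 bp.

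**Figure D3:**
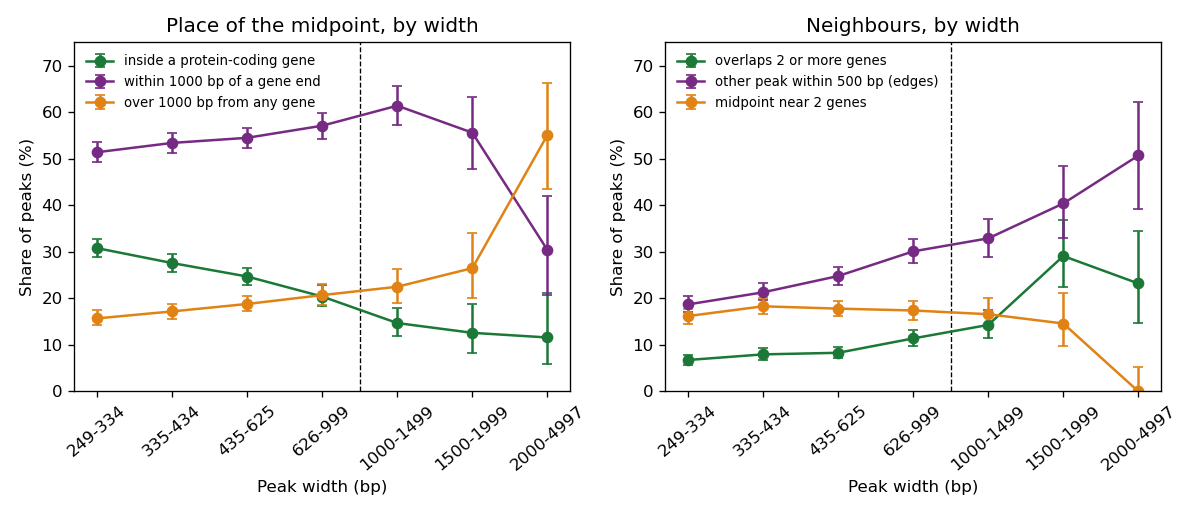
Shares of peaks (%, y axes) by width class (x axes, bp), with 95% Wilson intervals; the dashed line marks 1000 bp. Left, place of the midpoint; right, peaks that overlap 2 or more genes, have another peak within 500 bp, or have a midpoint within 1000 bp of 2 protein-coding genes. The share inside protein-coding genes falls from 30.8% to 11.6%, and the share with another peak within 500 bp rises from 18.7% to 50.7%. The 500 bp are measured between edges, which lie nearer to a neighbour the wider a peak is.

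Broad peaks were rare in short gaps between genes, but beyond about 2000 bp a longer gap did not go with a larger share of them. Of the peaks with a midpoint in a gap of up to 500 bp, 6 of 367 were broad (1.63%). The share was 6.04% in gaps of 501 to 1000 bp, 10.5% at 1001 to 2000 bp and 14.1% (12.0 to 16.5%) at 2001 to 3000 bp. It was 11.3% at 3001 to 4000 bp and 11.9% at 4001 to 8000 bp, and 18 of 222 peaks (8.11%, 5.19 to 12.5%) were broad in gaps of 12001 bp or more. Inside genes it was 5.04%. A peak of 1000 bp or more cannot lie in a gap under 1000 bp without entering a gene, so the low shares in short gaps depend on width by geometry. The 276 broad peaks wholly between genes filled a median of 28.7% of their gap, up to 93.4%.

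**Figure D4:**
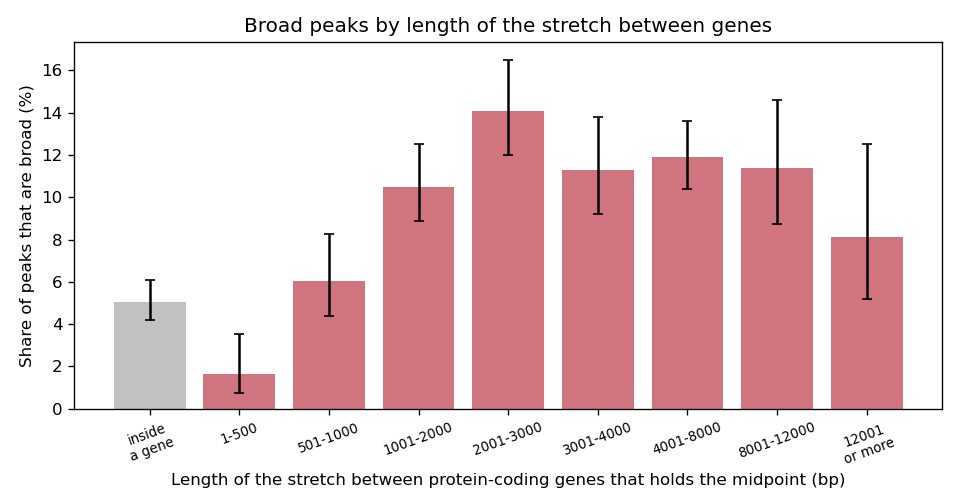
Share of all peaks that are 1000 bp or wider (%, y axis) by the length of the stretch between protein-coding genes that holds the midpoint (x axis, bp), with 95% Wilson intervals; the grey bar is peaks with midpoints inside a gene. The share rises from 1.63% in the shortest gaps to 14.1% at 2001 to 3000 bp and does not rise further. A gap under 1000 bp cannot hold a broad peak without part of it in a gene.

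The 15 widest peaks measured 2961 to 4997 bp. Of these, 9 crossed 1 gene end, 3 overlapped no protein-coding gene, 2 bridged neighbouring genes and 1 held a whole gene. The widest, 4997 bp (chr1:4576466-4581462, TAIR10, no strand), had 1743 bp in genes: it held all of AT1G13360, which is 1497 bp long, and reached into its neighbour AT1G13350. At TGA1 itself (AT5G65210) a 4142 bp peak had 966 bp in the gene and 3176 bp outside (chr5:26054357-26058498). Whether fragments at TGA1 come from the native gene or from the introduced copy cannot be told apart in a peak list.

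At ERF4 (AT3G15210), a repressor in ethylene responses, a 4138 bp peak (chr3:5121944-5126081) had 619 bp in the gene and also overlapped 3 annotated RNA genes that do not code for protein. At WRKY29 (AT4G23550), a transcription factor of the defence response, a 4130 bp peak had 273 bp in the gene and 3857 bp outside. A 3248 bp peak touched AOX1A (AT3G22370), the main stress-induced mitochondrial alternative oxidase, with only 8 bp. At APY1 (AT3G04080), which encodes an apyrase that cleaves nucleotides, 374 of 3466 bp were in the gene. At AHA2 (AT4G30190; HA2 in the gene table), a major proton pump of the root plasma membrane, 193 of 2961 bp were.

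A few of the widest peaks departed from this layout. LOG7 (AT5G06300), which encodes a cytokinin-activating enzyme, was covered over 3225 of its 3860 bp by a 3483 bp peak that also reached the peroxiredoxin gene 2-Cys Prx B (AT5G06290). The uncharacterised gene AT2G32150 had 1886 bp of a 3301 bp peak. The peak at LBD39 (AT4G37540), a repressor of nitrate-responsive genes, filled its whole gap: 2972 bp wide, it spanned the 2184 bp between LBD39 and AT4G37550 and reached into each. A 3930 bp peak overlapped no gene and had its midpoint 5593 bp from the nearest protein-coding gene, RAV1 (AT1G13260), a transcription factor with AP2 and B3 domains. Another, of 3144 bp, was 2898 bp from NAC047 (AT3G04070). The last without a protein-coding gene, of 3220 bp, lay in the gap next to AT1G78070. The remaining peaks had 327 of 3543 bp in AT5G11090 and 273 of 2970 bp in AT3G60690.

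The first 10 broad peaks of the list, at places 1 to 13, ran from 1006 to 3543 bp, and 3 of them were over 2000 bp wide. The peak at place 1 (1560 bp) filled most of a 1717 bp gap between AT5G64550 and the magnesium transporter gene MGT9 (AT5G64560). At place 3, a peak of 2093 bp crossed an end of AT1G22190 with 453 bp in the gene, and at place 4 one of 2791 bp had 156 bp in SPDS2 (AT1G70310), which encodes a spermidine synthase. GHS1 (AT3G27160) had one of 1281 bp at place 8, and MKK9 (AT1G73500), a kinase that activates MAP kinases, one of 1383 bp at place 12. CIPK17 (AT1G48260), a kinase regulated by calcineurin B-like calcium sensors, had a 1006 bp peak at place 10 wholly inside the gene. Peaks of 1482, 1032 and 1228 bp at places 6, 9 and 13 overlapped no protein-coding gene, and the peak at place 11 is the one of 3543 bp at AT5G11090.

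A list of 10 genes of nitrogen or TGA biology, TGA1 among them, was drawn up with earlier results of these data known, so how many of them have a broad peak is no finding beside the 1.92% of all protein-coding genes that a broad peak overlapped. At NRT2.1 (AT1G08090), a high-affinity transporter that takes nitrate into the root, it was 1943 bp wide with 121 bp in the gene. Its partner NRT3.1 (AT5G50200; WR3 in the gene table) had 432 bp of a 1478 bp peak. NLP7 (AT4G24020), a master regulator of the nitrate response, had 248 of 1697 bp. HRS1 (AT1G13300), a repressor of the nitrogen starvation response, had 344 of 2118 bp, with the other 1774 bp in a gap of 2234 bp. Around HRS1 lay 6 more broad peaks in the same stretch of chromosome 1 (chr1:4514373-4586968), among them the widest of all and the peak of 3930 bp near RAV1. The ammonium transporter genes AMT1;3 (AT3G24300) and AMT1;1 (AT4G13510) had 159 of 2416 bp and 824 of 1560 bp, the latter mostly inside the gene. No overlap was seen at NRT2.2 (AT1G08100), whose nearest broad peak of 1085 bp ended 783 bp away, or at CEPH (AT4G32950), a phosphatase acting on NRT2.1, where a 1967 bp peak ended 115 bp from the gene. At TGA4 (AT5G10030) the 1557 bp peak lay wholly inside the gene, 2366 bp from the nearer gene end.

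The genes listed for the 31 broad peaks wholly inside protein-coding genes had a median length of 3815 bp, up to 7773 bp. The median over all protein-coding genes was 2078 bp. The shortest listed, AT3G03990 (1659 bp), does not hold its 1047 bp peak alone. The midpoint lay 166 bp from the gene end, and the peak also overlapped AT3G04000. A gene must be longer than its peak to hold it, so these lengths depend on the width chosen. The near edge of the peak was a median of 732 bp from the gene end. The widest, 2225 bp (chr2:8279521-8281745), lay in HMA4 (AT2G19110), a pump that loads zinc into the xylem, followed by the TGA4 peak. Other genes with such a peak encode GA2OX6 (AT1G02400, 1250 bp), which inactivates gibberellin, CKX4 (AT4G29740, 1135 bp), which degrades cytokinin, NIP5;1 (AT4G10380, 1021 bp), a boric acid channel, CAT6 (AT5G04770, 1449 bp), an amino acid transporter, and ABCG25 (AT1G71960, 1061 bp), an exporter of abscisic acid. The genes of this group other than TGA4 and CIPK17 were chosen after their values were seen.

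Among the genes held whole by a broad peak, most were short. They numbered 21 and ranged from 105 to 2460 bp in length. A gene held whole cannot be longer than its peak, so these lengths depend on the width chosen. The longest was SUE4 (AT3G55880), 2460 bp under a 2925 bp peak. ERF104 (AT5G61600), an ethylene response factor of the defence response, was under one of 1910 bp, CML23 (AT1G66400), a calmodulin-like calcium sensor, under one of 1932 bp, and NIMIN-2 (AT3G25882), which binds the immune coactivator NPR1, under one of 1073 bp; these were also picked out after their values were seen. Of annotated long non-coding RNA genes, 75 of 3480 (2.16%) were overlapped and 47 were held whole. Of protein-coding genes 528 of 27444 (1.92%) were overlapped. Narrower peaks overlapped 8.30% of the long non-coding RNA genes, held 51 of them whole, and overlapped 13.5% of the protein-coding genes. Counted by peak, 67 broad peaks overlapped a long non-coding RNA gene, 9.17% (7.28 to 11.5%), against 3.77% (3.35 to 4.23%) of narrower peaks. On chromosome 4 the order was the other way (3.60% against 3.90%). A wider peak has more reach to touch a gene, so this share depends on width by geometry. Broad peaks, with 23.8% of the bases under peaks, overlapped 75 of these genes and narrower peaks 289. Of 3917 genes typed as pseudogenes 1 was overlapped, and of 326 microRNA genes none was, while narrower peaks overlapped 5 and 3 of these.

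Measured from edge to edge, broad peaks had other peaks close by more often than narrower ones did. The wider a peak is around its midpoint, the nearer its edges lie to its neighbours, so distances between edges depend on width by geometry. The nearest other peak lay a median of 813 bp away (quartiles 321 and 2964 bp), against 1667 bp (549 and 5705 bp) for narrower peaks. Within 500 bp there was another peak for 264 broad peaks, 36.1% (32.7 to 39.7%), and for 23.1% (22.1 to 24.1%) of narrower peaks. For the 69 peaks of 2000 bp or more it was 50.7% (39.2 to 62.2%). Among the 15 widest, 11 had one, 7 of them within 200 bp; the peak at TGA1 was separated by 86 bp from its neighbour. No pair of peaks in the list was closer than 82 bp, and how the authors joined or split regions is not given in the sources used here. Measured between midpoints, where a peak's own width pushes its neighbours away, the shares with another peak within 2000 bp were 51.7% (48.1 to 55.3%) for broad and 47.3% (46.1 to 48.4%) for narrower peaks. These intervals overlap, and on chromosome 2 the order was the other way (47.2% against 49.2%).

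In 108 cases, 14.8%, the nearest neighbour of a broad peak was itself broad, as it was for 9.82% of narrower peaks. Runs of broad peaks under 2000 bp apart numbered 50 and held 110 of the 731 peaks, mostly as pairs. The closest pair, 86 bp apart, covered a 5690 bp span on chromosome 1 between GATL3 (AT1G13250) and RAV1. Another pair, of 1193 and 3466 bp, was 107 bp apart and reached into NAC047 on one side and APY1 on the other. A pair 116 bp apart reached into WRKY72 (AT5G15130), and a pair 118 bp apart lay near the gibberellin receptor gene GID1B. The longest run had 5 broad peaks, of 1104, 1159, 1504, 1291 and 1240 bp, in 1 gap of 10132 bp between AT4G17800 and AT4G17810 (chr4:9897181-9905447). None of these 5 overlapped a gene. Runs of 3 lay at WRKY65 (AT1G29280), the AP2 factor gene RAP2.4 (AT1G78080), HAT9 (AT2G22800), NAC083 (AT5G13180) and ARF2 (AT5G62000), among 7 in all.

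A broad peak was assigned to a protein-coding gene when its midpoint fell in a zone around either end of the gene, reaching 1000 bp out and 200 bp in. Of the broad peaks, 316 had 1 such gene, 130 had 2, 7 had 3 or more and 278 had none. They marked 584 of 27444 protein-coding genes, 2.13%, against 22.8% for peaks of any width, so 9.33% of the genes with a peak had a broad one. Of the marked genes, 149 (25.5%) also had a narrower peak assigned, and 13 had 2 broad ones, among them WRKY65 (1817 and 1738 bp), PYL5 (AT5G05440, 1323 and 1321 bp), an abscisic acid receptor, ZF2 (AT3G19580, 1852 and 1582 bp), a zinc finger repressor, and HSF4 (AT4G36990, 1540 and 1266 bp), a heat shock factor. No gene had 3. PYL5 and ZF2 were picked out after their values were seen. Genes with a broad peak had a median of 2894 bp of free sequence on both sides together, genes with narrower peaks only 2489 bp and genes with none 2111 bp. The midpoint rule misses peaks that reach a gene from afar, such as those at TGA1, ERF4, WRKY29, LBD39 and AHA2. When any contact of the peak with the zone counted, 886 genes were marked, 3.23%.

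Several families of signalling and transcription factor genes had shares with a broad peak above that of all genes, on small numbers throughout. Families were taken by the stem of the gene name, and 30 of them had 20 or more genes. Their median share with a broad peak was 3.07%, and 20 of the 30 were above the 2.13% of all protein-coding genes. For peaks of any width 25 of the 30 were above 22.8%. CIPK and WRKY genes, with high shares of broad peaks, also had many peaks of any width, at 61.5% and 59.2% of genes. This did not hold throughout. Aux/IAA genes had any peak at 31.0% and a broad one at 10.3%, while BHLH genes had any peak at 45.5% and no broad one. Of the genes with any peak, those with a broad one were 25% in CIPK and 16.7% in WRKY genes. In Aux/IAA genes they were 33.3% (3 of 9) and in ARF genes 25% (2 of 8). They were 10.8% in NAC, 9.09% in LBD and 4.17% in MYB genes, against 9.33% over all genes. Peaks are shared between neighbours in some families, so genes are not independent, and no family was tested.

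Among signalling genes, CIPK kinases, which relay calcium signals to transporters and channels, had 4 of 26 genes with a broad peak (15.4%, 6.15 to 33.5%). They rested on 3 peaks, of 1700 bp at CIPK12 (AT4G18700), 1697 bp at CIPK11 (AT2G30360) and 1320 bp shared by CIPK14 (AT5G01820) and CIPK15 (AT5G01810). MAP kinase and MAP kinase kinase genes had 2 of 30, MKK1 (AT4G26070, 1412 bp) and MKK9. Cytokinin response regulators had 2 of 24, ARR4 (AT1G10470, 1963 bp) and ARR1 (AT3G16857, 1174 bp). CPK calcium-dependent kinases had 1 of 34, CPK32 (AT3G57530, 1389 bp). Genes with kinase in their names had 26 of 583 (4.46%, 3.06 to 6.45%), led by PPCK1 (AT1G08650, 2515 bp), which phosphorylates phosphoenolpyruvate carboxylase, and by ZEU1 (AT5G59440, 1963 bp), a thymidylate kinase. Genes with phosphatase in their names had 5 of 144 (3.47%), among them ABI1 (AT4G26080, 1854 bp), a repressor of abscisic acid signalling.

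Of the transcription factor families, WRKY genes, many of which act in defence, had 7 of 71 genes with a broad peak (9.86%, 4.86 to 19.0%). The widest were at WRKY11 (AT4G31550, 2536 bp), WRKY65, WRKY17 (AT2G24570, 1773 bp) and WRKY47 (AT4G01720, 1469 bp). Aux/IAA repressors of auxin responses had 3 of 29 (10.3%, 3.58 to 26.4%): IAA16 (AT3G04730, 1915 bp), IAA26 (AT3G16500, 1083 bp) and IAA28 (AT5G25890, 1055 bp). Auxin response factors had 2 of 23, ARF11 (AT2G46530, 1502 bp) and ARF2 (1360 bp). Genes of the bZIP family, to which TGA1 belongs, had 3 of 40 under their bZIP names (7.50%, 2.58 to 19.9%), namely bZIP5 (AT3G49760, 1567 bp), bZIP19 (AT4G35040, 1371 bp), a sensor of zinc deficiency, and BZIP24 (AT3G51960, 1188 bp). ERF genes had 2 of 26, ERF2 (AT5G47220, 1981 bp) and ERF8 (AT1G53170, 1526 bp), and 5 of 26 when any contact counted. NAC genes had 4 of 99 (4.04%, 1.58 to 9.93%), rising to 9 with any contact. The widest assigned to them were at NAC083 (1776 bp) and NAC3 (AT3G15500, 1248 bp).

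Homeobox genes had 3 of 52 (5.77%), HB-7 (AT2G46680, 1562 bp), which responds to drought, HAT9 (1373 bp) and HB-1 (AT3G01470, 1112 bp). A 2402 bp peak touched the relative of HB-7, HB-12 (AT3G61890). Of the LBD genes 1 of 40 was assigned one, LBD38 (AT3G49940, 1174 bp), while LBD39 had the bridging peak given above. At LBD37 (AT5G67420) a 1642 bp peak entered the zone but not the gene, with its midpoint 1295 bp away. These 3 genes are repressors of nitrate-responsive genes.

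Some other families of regulators had shares below the 2.13% of all genes, with intervals that held it. The intervals of some families given above, such as NAC, homeobox, LBD and CPK genes, also held it. MYB genes had a peak of some width at 48 of 125 genes (38.4%) but a broad one at only 2, MYB44 (AT5G67300, 1777 bp) and MYB73 (AT4G37260, 1215 bp), or 1.60% (0.440 to 5.65%). Basic helix-loop-helix genes under their BHLH names had peaks at 10 of 22 genes and TCP genes at 7 of 22, and none was broad, which with so few genes leaves an interval up to 14.9% in each.

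Genes with transporter in their names had 13 of 284 with a broad peak (4.58%, 2.69 to 7.67%). The widest were at NST-K1 (AT4G39390, 2051 bp), a nucleotide sugar transporter, ABCC5 (AT1G04120, 1947 bp), an ABC transporter of inositol phosphate, NRT2.1 and the phosphate transporter gene PHT1;1 (AT5G43350, 1716 bp). NRT1/PTR family genes listed under NPF names had peaks at 9 of 27, none of them broad (interval up to 12.5%), and aquaporin genes at 6 of 24, none of them broad (up to 13.8%). These intervals hold the share of the transporter genes. Glycosyltransferases of the UGT class had 5 of 64 (7.81%, 3.38 to 17.0%) resting on 4 peaks, with UGT76B1 (AT3G11340, 1330 bp), which glucosylates defence-related acids, the widest and UGT73B1 (AT4G34138) and UGT73B2 (AT4G34135) sharing a peak of 1092 bp. Glutathione transferases, with peaks at 21 of 48 genes, had 1 broad, GSTU19 (AT1G78380, 1052 bp). Cytochrome P450 genes named CYP had 7 of 234 (2.99%), near the share of all genes, led by CYP72C1 (AT1G17060, 1452 bp), which inactivates brassinosteroids, and by the neighbours CYP710A1 (AT2G34500, 1402 bp) and CYP710A2 (AT2G34490, 1292 bp), sterol desaturases.

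Counts near or below the share of all genes were also seen elsewhere. Genes named EMB, which are needed by the embryo, had a broad peak at 2 of 201 (0.995%, 0.273 to 3.55%) and any peak at 14.9%. Genes named RPL or RPS for ribosomal proteins had 1 of 43, light-harvesting and photosystem genes 1 of 48, and small cysteine-rich LCR genes 0 of 84.

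**Figure D5:**
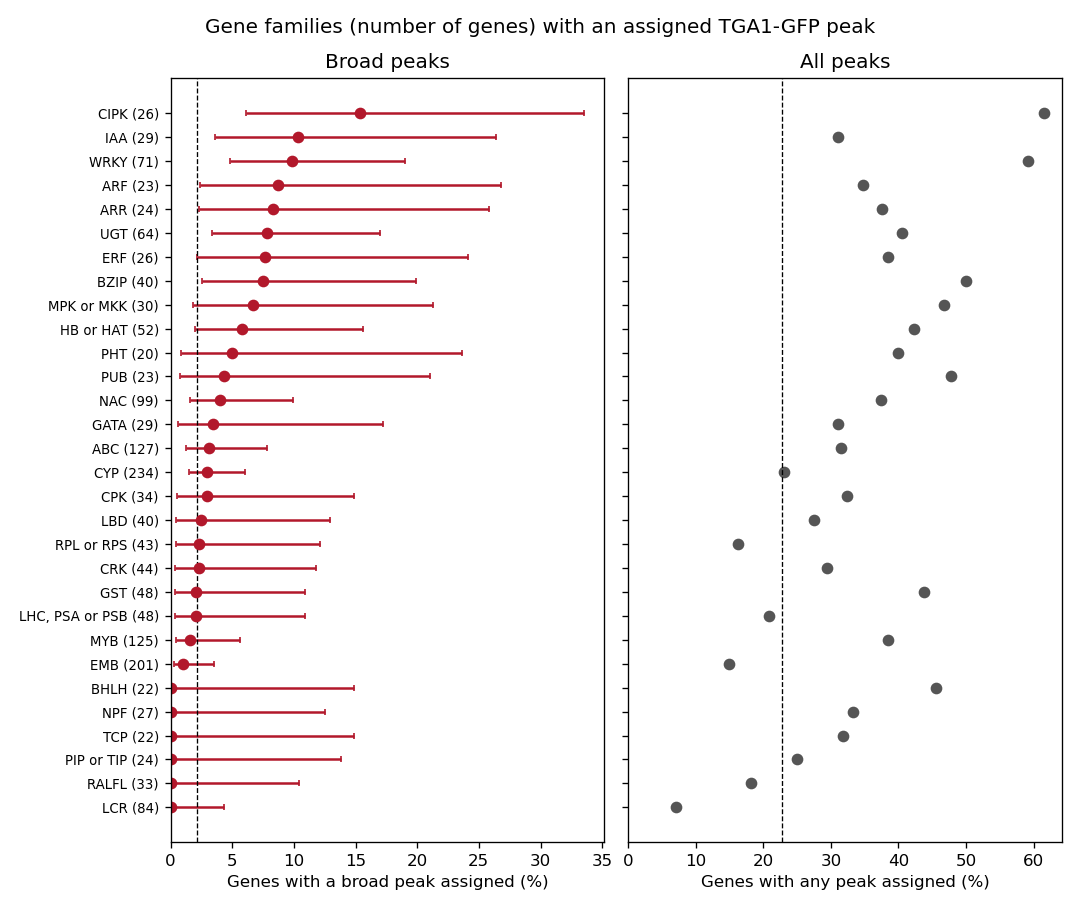
Share of genes (%, x axes) with an assigned broad peak (left, with 95% Wilson intervals) and with any assigned peak (right) in the 30 name families of 20 or more genes (y axis, number of genes in brackets); dashed lines mark all protein-coding genes at 2.13% and 22.8%. CIPK genes are highest on both sides (15.4% broad), while MYB, BHLH, GST, NPF, TCP and PIP or TIP genes are above the line on the right but not on the left.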

How the data were processed

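Per the labels, root chromatin was cross-linked with 1% formaldehyde and 100 ng of DNA went into each library; the protocol text names GFP antibodies for both libraries, so IgG is taken from a title alone. The submitters' processing notes list Bowtie2, MACS2 and TAIR10; their versions, the thresholds and whether IgG served as control are not stated there. The authors deposited 1 peak list for the series, with chromosome, start and end and no other value. Starts were taken as BED starts, so 1 was added for print. Genes came from a RefSeq table of assembly TAIR10.1, which keeps the nuclear chromosomes: 37899 genes on 5 chromosomes, 27444 of them protein-coding, with no strand or exons. As a check of shared coordinates, 24.4 to 27.8% of midpoints per chromosome lay inside protein-coding genes, and 59.1 to 64.4% when peaks were shifted by 5000 bp.

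Peaks were classed by width, midpoint, overlap of at least 1 bp, and free bp to the nearest peak. Families were taken by name stem (35) or a word in the names (10), so genes without names are missed; ARF, HB, RPS, ZIP, ERF and IAA names of unrelated genes were removed by their descriptions. Named genes are those at the 15 widest and first 10 broad peaks, at the closest pairs, and those with most bases under broad peaks. Up to 4 members per family and 10 genes of nitrogen or TGA biology were also named, and others are marked as chosen later. Members and lists were chosen with earlier results of these data known. A few items are not reported here. No sequence was used here, so the planned motif comparison was not run. No count or p-value exists in the list, so nothing was tested. Code was tested on simulated data. Python 3.11.15, pandas 2.3.3, numpy 2.4.6, statsmodels 0.14.6 and matplotlib 3.10.9 were used.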

Additional observations from a re-analysis of the deposited data

How the results depend on the processing

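No paired analysis was possible because each antibody had 1 library and the list holds no values per library. Of 42 alternatives, 15 kept the share or count within its interval (within 1.5 times for the count of genes), and the cause of the other moves was not tested unless the setting itself is the cause. For midpoints within 1000 bp of a gene end, 57.3% became 47.7% with peaks of 1500 bp or more, 30.4% with 2000 bp or more, 33.1% with a zone of 500 bp and 76.3% with 2000 bp; in the first 3 of these, broad peaks fell below the narrower ones (54.3, 54.3 and 40.4%), so the small excess near genes depends on the cut and the zone. Midpoints inside protein-coding genes (14.0%) became 11.6% from 2000 bp and 17.0% for the central 200 bp. Any overlap gave 62.2% against 52.5% for narrower peaks, the opposite order. Midpoints over 1000 bp from genes (26.4%) became 35.5% from 1500 bp, 55.1% from 2000 bp, 50.6% and 7.39% with zones of 500 and 2000 bp, and 30.2% with protein-coding genes only, each above the narrower peaks. The midpoint of a peak that starts at a gene end moves out with its width, so the shares from 1500 and 2000 bp depend on the cut by geometry. Genes overlapped per peak (0.873 against 0.643) became 0.731 with at least 100 bp, 0.744 for protein-coding genes and 0.215 in the central 200 bp, where narrower peaks had 0.446. Midpoints near 2 genes (14.6% against 17.4%) became 10% from 1500 bp and 0 from 2000 bp, where a peak has no room in such a gap unless it enters the genes. Another peak within 2000 bp (68.8% against 53.4%) became 36.1, 55.8 and 83.6% within 500, 1000 and 5000 bp, 51.7% between midpoints and 50.2% in the earlier part of the list, up to its middle, each above narrower peaks. All of these but the share between midpoints are measured between edges and depend on width by geometry. The 584 genes became 281 and 938 with zones of 500 and 2000 bp, 886 with any contact, 1011 from 800 bp and 144 from 1500 bp. Merging peaks under 200 bp apart gave 851 broad ones and kept the 3 midpoint shares within their intervals.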
